A study of Mus musculus with 12 samples.

Results

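The comparison described here sets 3 libraries of the group titled aFM against 3 libraries of the group titled DZ, 6 of the 12 libraries in the series. They were chosen by their titles, and every row of the deposited count table that carries a mouse miRNA name was read in them. All libraries hold small RNA from extracellular vesicles, the membrane particles that cells release, collected from mesenchymal stem cells of mouse bone marrow kept in culture. The design text describes cultures given 2 μg/ml of a preparation abbreviated ESPs, HCF or pLL for 48 h, in a series titled for hydatid antigen stimulation. The labels give every library the same tissue (Bonemarrow), cell type (mesenchymal stem cells), genotype field (SPF-gradeC57BL/6mice) and treatment (Antigenintervention). No label says what the names DZ and aFM stand for, which preparation either group received, or that DZ was unstimulated, so the comparison is given by these names. The age of the animals, the number pooled and whether A, B and C are separate cultures are stated in none of the labels. The p-values therefore speak only of how far these libraries vary, and that variation may be technical.

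A miRNA is a short RNA cut from a hairpin precursor and carried by an Argonaute protein, which it guides to messenger RNAs that pair with its seed, bases 2 to 8 counted from the 5′ end. Either arm of the hairpin, named 5p or 3p, can be kept, and related miRNAs that share a seed can share targets. Vesicles carry a part of the miRNA content of the cells that shed them, and stromal cell vesicles are known for miRNAs that act on bone formation and on inflammatory signalling. In such bulk libraries fewer vesicles from a cell type and less of its RNA per vesicle cannot be told apart.

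The mature sequences of the miRNAs that carry the comparison are printed first, 5′ to 3′, with the seed in capitals. They come from RefSeq on GRCm38.p6, which held 109 of the 132 miRNAs tested and 15 of the 25 that differed. The first set is the single most changed miRNA and the endothelial miRNA, both higher in aFM.
miR-9-5p: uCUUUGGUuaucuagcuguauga
miR-126a-3p: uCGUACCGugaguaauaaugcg
The second set holds the 5 tested miRNAs of the imprinted Dlk1-Dio3 cluster, and shows that no seed is shared among them.
miR-127-3p: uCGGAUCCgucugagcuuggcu
miR-379-5p: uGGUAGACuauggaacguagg
miR-411-5p: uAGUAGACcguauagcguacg
miR-381-3p: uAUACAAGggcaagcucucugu
miR-409-3p: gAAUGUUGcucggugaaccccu
The third set holds 2 pairs with a shared seed, in which miR-222-3p and miR-146a-5p are among the 25 that differed and their partners are not.
miR-222-3p: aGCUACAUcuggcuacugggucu
miR-221-3p: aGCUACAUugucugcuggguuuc
miR-146a-5p: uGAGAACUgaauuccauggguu
miR-146b-5p: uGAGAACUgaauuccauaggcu
The last set holds 4 miRNAs that were lower in aFM.
miR-21a-5p: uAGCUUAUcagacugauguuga
miR-16-2-3p: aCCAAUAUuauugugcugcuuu
miR-142a-5p: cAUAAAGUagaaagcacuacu
miR-210-3p: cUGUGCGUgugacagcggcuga

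Depth differed between the groups. DZ libraries held 85772 to 177849 counts in all and 17607 to 24758 on annotated miRNAs, and aFM libraries 148759 to 214303 and 22903 to 29600. Annotated miRNAs took 10.3% to 21.6% of a DZ library and 10.7% to 19.9% of an aFM library, and the rest fell on predicted loci. The difference in annotated share of counts, aFM against DZ, was -2.10 percentage points (two-sided exact permutation p = 0.6, where 3 against 3 cannot go below 0.1). Between 212 and 236 annotated rows had a count in a DZ library, and between 260 and 273 in an aFM library. Levels below are in CPM, counts per 1000000 TMM-scaled counts on tested miRNAs, and since 0 observed counts allow for as many as 3, a miRNA at 0 may lie anywhere under 92.1 to 186 CPM, depending on the library. The aFM libraries resembled each other more than the DZ libraries did. The Pearson correlation of log2 levels across the tested miRNAs was 0.95 to 0.97 between aFM libraries and 0.87 to 0.90 between DZ libraries. The median coefficient of variation of the tested miRNAs was 23.5% in aFM and 36.8% in DZ, and it was wider in DZ for 90 of 132 miRNAs.

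Against DZ, 25 of 132 miRNAs tested passed an adjusted p of 0.05 (18.9%), 12 higher (9.09%) and 13 lower (9.85%) in aFM. The higher ones included the neural miRNA miR-9-5p, the endothelial miR-126a-3p, the osteoblast miRNA miR-3960 and 4 miRNAs of the Dlk1-Dio3 cluster. The lower ones included the erythroid miR-486a-5p, the leukocyte miR-142a-5p, the hypoxia miRNA miR-210-3p, and miR-146a-5p and miR-21a-5p of inflammatory signalling. The cell type words describe single miRNAs and not their marker lists. In the erythroid, leukocyte and neural lists some other members overlapped, went the other way or were at 0, as given below. In all 25 the 3 aFM libraries did not overlap the 3 DZ libraries, as in 45 of 132 miRNAs tested (34.1%). Calls counted within a list below are to be read beside the shares of 18.9%, 9.09% and 9.85% over all tested. With few members tested, such counts carry no result about a list. Adjusted p-values are from edgeR's quasi-likelihood test over all 12 libraries unless another tool is named. By an unadjusted p under 0.05 there were 40 (30.3%), and DESeq2 called 28 (21.2%), of which 24 were among the 25. The rows of miR-486a and miR-486b are identical on both arms, so the 25 are 23 measurements. Not all of these held when identical rows were merged before the fit. That gave 19 calls of 127 tested, 9 higher and 10 lower, all among the 25. The calls depended on single libraries. Leaving out DZ replicates A, B and C in turn gave 8, 6 and 15 calls, and aFM replicates A, B and C in turn 5, 5 and 6. The same for the groups titled NY and PLL, which enter through the filter on low counts, the scaling and the shared estimate of spread, gave 9, 8 and 11 and then 26, 16 and 12. A fit of only the aFM and DZ libraries tested 104 miRNAs and called 22, with 14 higher and 8 lower. Of these calls 18 were among the 25. Another 5 of the 25 did not pass the filter on low counts in that fit. They were miR-378c, miR-145a-5p, miR-210-3p, miR-486a-3p and miR-486b-3p. The split into 12 higher and 13 lower became 12 and 4 with RLE factors, 8 and 15 with upper quartile factors, 7 and 1 with annotated library totals and 4 and 1 once library sizes included predicted loci. The median log2 fold change of all miRNAs tested, -0.14 here, was -0.32 with upper quartile factors and -0.53 once library sizes included predicted loci. No called miRNA changed direction in any of these settings.

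**Figure D1:**
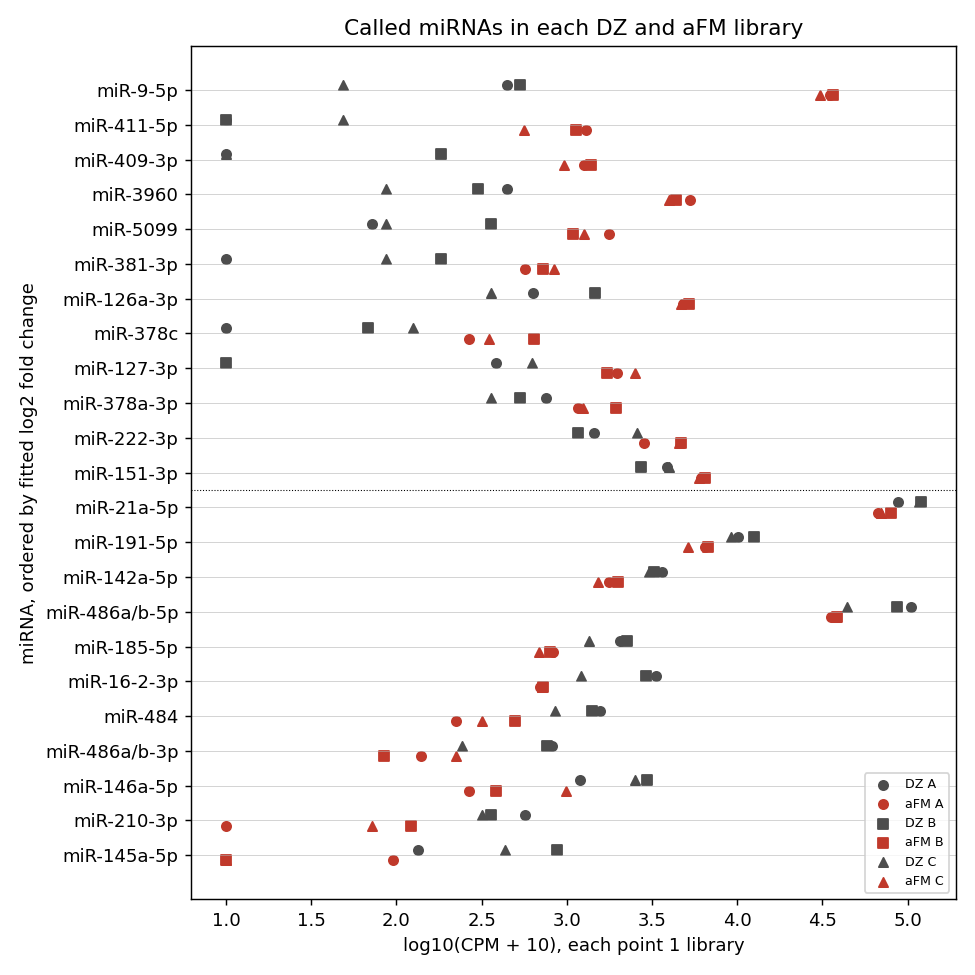
Level of each called miRNA in every DZ (grey) and aFM (red) library, as log10 of CPM plus 10, ordered by fitted log2 fold change, with the identical rows of miR-486a and miR-486b drawn once. The dotted line separates the miRNAs higher in aFM (above) from those lower (below), and in none of them do the 3 red points overlap the 3 grey points.

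**Figure D2:**
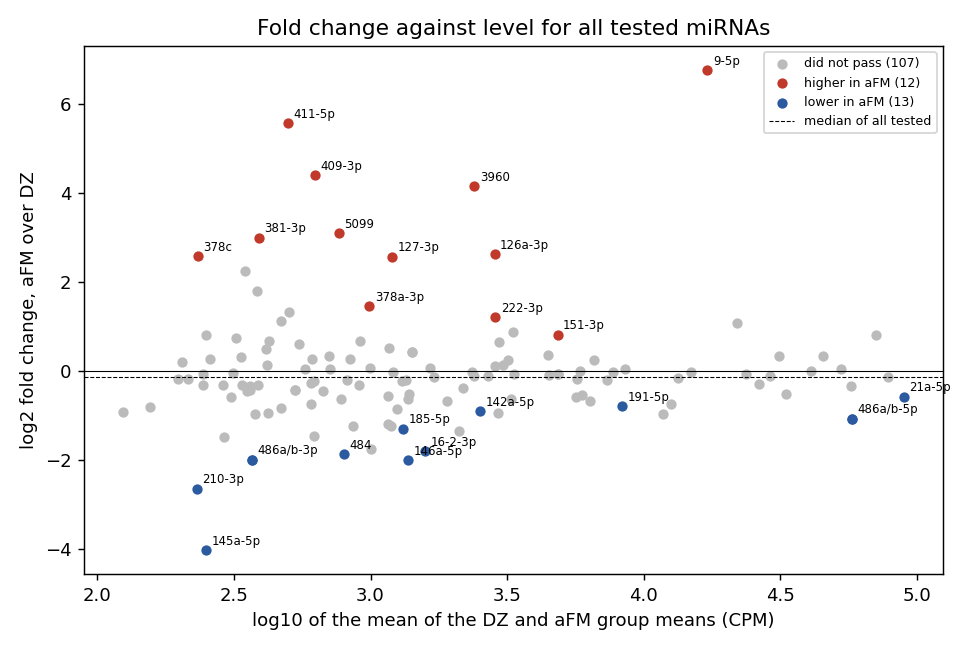
Fitted log2 fold change of aFM over DZ against the mean level for the 132 miRNAs tested, with the 12 called higher in red, the 13 called lower in blue and the others in grey. The dashed line is the median of all tested, at -0.14, and miR-9-5p stands apart at a log2 fold change of 6.76.

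miR-9-5p, which is abundant in neural tissue and is also induced by inflammatory signals in myeloid cells, showed the largest difference. It stood at 434, 520 and 38.5 CPM in DZ replicates A, B and C and at 35003, 36232 and 30454 CPM in the aFM replicates. Each aFM library was thus far above each DZ library. The group means were 331 ± 257 and 33896 ± 3044 CPM (SD, n = 3), from 17 and 2779 counts, and the log2 fold change was 6.76 ± 0.54 (SE, adjusted p = 3.84e-06). It ran from 6.16 without DZ replicate C to 7.36 without DZ replicate B and passed under every setting run. Of the 6 libraries, only those of aFM held 10 or more counts of miR-9-5p, so the filter on low counts favours a high value. RefSeq places its 3 genes at chr13:83738821-83738843, chr3:88215613-88215635 and chr7:79505279-79505301. In GENCODE M21 these lie, in that order, in an exon of the noncoding gene C130071C03Rik, an intron of Gm3764 and an intron of Mir9-3hg. All are on the same strand as these hosts. The counts do not show which gene was the source, since all 3 give the same mature sequence. From the opposite arm, miR-9-3p, no read was counted in the 6 libraries.

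The other neural miRNAs were read beside it. miR-124-3p, the most abundant miRNA of neurons, had 0 counts in every DZ library and 4, 6 and 2 in the aFM libraries, too few to be tested. miR-128-3p, which is enriched in brain, stood at 2849, 1850 and 2233 CPM in DZ and 4541, 3063 and 3254 CPM in aFM, without overlap (log2 fold change 0.65 ± 0.26, adjusted p = 0.109). miR-129-5p was at 743, 405 and 154 CPM in DZ and 685, 187 and 153 CPM in aFM. miR-9-3p, miR-219a-5p, miR-138-5p and miR-137-3p were at 0 in all 6 libraries. Summed over the 8 neural markers, DZ libraries held 2425 to 4026 CPM and aFM libraries 33923 to 40401 CPM. Without miR-9-5p the sums were 2255 to 3593 and 3469 to 5398 CPM, so they overlapped. The part of other cells in the level of miR-9-5p was not tested.

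miR-126a-3p, the endothelial miRNA that restrains negative regulators of VEGF signalling, was higher in aFM. Its levels were 619, 1445 and 346 CPM in DZ and 4798, 5192 and 4666 CPM in aFM. The aFM libraries lay within a narrow range, and the highest DZ library, replicate B, was well below them. The log2 fold change was 2.63 ± 0.46 (adjusted p = 0.0047), and 3.40 without DZ replicate B. Where library sizes included predicted loci, it fell short of the threshold at 2.17 (adjusted p = 0.104). RefSeq places it at chr2:26591402-26591423, which in GENCODE M21 is in an annotated exon of its host Egfl7 and an intron of Gm20532. Its 5p partner, miR-126a-5p, had 0, 0 and 4 counts in DZ and 3, 1 and 1 in aFM, too few to compare with the 3p arm.

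The Dlk1-Dio3 locus carries one of the largest miRNA clusters in mammals, expressed from the maternal chromosome and active in embryonic, placental, neural and stromal cells. All 54 listed members had a row, 29 had a count in the 6 libraries and 5 were deep enough to be tested. Of these 5, 4 were higher in aFM and 0 lower, beside 12 (9.09%) and 13 (9.85%) of all 132 tested. The median log2 fold change of the 5 was 3.00, beside -0.14 over all miRNAs tested. This median and the count of calls are descriptions only, since the filter on low counts favours high values here. Within these 6 libraries miR-411-5p, miR-409-3p, miR-381-3p and miR-127-3p had at least 10 counts in every aFM library but not in every DZ library. miR-379-5p had 4, 0 and 3 counts in DZ and 8, 14 and 28 in aFM. The 5 tested members lie within 150 kb of chromosome 12, from position 109592888 to 109743225 on the plus strand. miR-127-3p sits there opposite an exon of Rtl1, the retrotransposon-derived gene whose transcript it can cut, and miR-409-3p lies in an intron of the noncoding gene Mirg.

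The 2 members with the largest difference had few counts in DZ. miR-411-5p had 0, 0 and 1 counts in DZ and 30, 30 and 18 in aFM, 56.1 times as many per scaled count (95% counting interval 9.77 to 2242; adjusted p = 0.0047). miR-409-3p had 0, 3 and 0 counts in DZ and 29, 37 and 31 in aFM, a ratio of 23.2 (7.72 to 115; adjusted p = 0.00474). Both passed whichever of the 12 libraries was left out and under the 9 other settings run. The fitted log2 fold change of miR-411-5p went from 5.56 to 7.92 without DZ replicate C. That of miR-409-3p went from 4.40 to 8.19 without DZ replicate B and 3.70 without DZ replicate C. In the 2 highest of these values the remaining DZ libraries were at 0. Intervals here pool the libraries of a group and cover counting error only.

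miR-381-3p and miR-127-3p were also higher. miR-381-3p, with 5 counts in DZ and 59 in aFM (8.48 times as many per scaled count, 95% counting interval 3.44 to 27.1), stood at 0, 173 and 77.0 CPM in DZ and 557, 710 and 829 CPM in aFM (log2 fold change 3.00 ± 0.91, adjusted p = 0.0415). miR-127-3p stood at 372, 0 and 616 CPM in DZ and 1971, 1718 and 2517 CPM in aFM (2.57 ± 0.75, adjusted p = 0.0415). Neither pair of groups overlapped. The calls were lost without any of 10 and 8 of the 12 libraries, with adjusted p up to 0.156 and 0.112. Without DZ replicate B the value for miR-381-3p was 3.84 (adjusted p = 0.0995), and without DZ replicate C that for miR-127-3p was 3.51. miR-379-5p, the fifth member tested, had 248, 0 and 115 CPM in DZ and 343, 523 and 860 CPM in aFM and did not pass (2.25 ± 0.74, adjusted p = 0.0539).

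The 49 members too sparse to test were summed as well. Together they held 8, 21 and 12 counts in DZ and 52, 61 and 97 in aFM, or 496, 1214 and 462 CPM against 2228, 2278 and 2978 CPM, without overlap. Of the 24 with a count, 19 had the higher mean level in aFM and 5 in DZ, 13 were at 0 in DZ and 2 at 0 in aFM. The aFM libraries were deeper, so sparse rows in general were read beside these. Of the 248 other annotated rows with a count that were too sparse to test, 132 had the higher mean level in aFM (53.2%), 69 were at 0 in DZ and 51 at 0 in aFM. Among the 49 untested members of the cluster, the most abundant, miR-493-5p, had 3, 4 and 0 counts in DZ and 7, 15 and 23 in aFM. Of the same 49, 2 more are given here. miR-543-3p had 0, 1 and 2 counts in DZ and 10, 7 and 18 in aFM, whereas miR-487b-3p had 0, 5 and 0 in DZ and none in aFM. Over all 54 members the sum was 1115 to 1561 CPM in DZ and 7626 to 8688 CPM in aFM, a ratio of means of 6.03.

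miR-3960, reported to promote osteoblast differentiation, was higher in aFM at 5270, 4333 and 3991 CPM against 434, 289 and 77.0 CPM in DZ. The group means were 4531 ± 662 and 267 ± 179 CPM (SD, n = 3), and the log2 fold change was 4.15 ± 0.74 (adjusted p = 0.0047). It passed under every setting run, with 4.74 without DZ replicate A as its highest value. Of the 11 osteoblast-promoting miRNAs listed, 4 were tested, miR-3960 among them. Of these, 1 was higher (miR-3960) and 1 lower (miR-21a-5p), with a median of 0.058 that includes miR-3960. Among those too sparse to test, miR-218-5p had 1, 4 and 0 counts in DZ and 5, 16 and 9 in aFM. miR-2861 had 0, 0 and 0 counts in DZ and 1, 1 and 0 in aFM. miR-20a-5p had 4, 6 and 2 against 3, 3 and 5, and miR-15b-5p 0, 2 and 0 against 1, 0 and 0. miR-26a-5p, which favours osteogenic differentiation in stromal cells, stood at 36733, 43414 and 40497 CPM in DZ and 54668, 50239 and 47676 CPM in aFM (0.34 ± 0.28, adjusted p = 0.575). miR-196a-5p stood at 1549, 1214 and 1424 CPM in DZ and 1500, 1307 and 798 CPM in aFM. miR-29b-3p, miR-335-5p and miR-216a-5p were at 0 in the 6 libraries. Among 13 miRNAs known to restrain osteoblasts, 7 were tested, 0 were higher and 1, miR-145a-5p, was lower, with a median of -0.27.

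miR-5099 also rose, from 61.9, 347 and 77.0 CPM in DZ to 1757, 1083 and 1259 CPM in aFM (log2 fold change 3.09 ± 0.78, adjusted p = 0.0311). The call was lost on removing DZ replicate A, DZ replicate C or an aFM replicate (adjusted p at most 0.0953), and the value was 4.21 without DZ replicate B. Of the 6 libraries, only those of aFM held 10 or more counts of miR-3960 or miR-5099. The filter on low counts thus favours a high value for both. These were the 2 called of 14 tested entries whose number is 1000 or higher, and 0 of the 14 were called lower. Their median was -0.54, and their summed level overlapped between the groups, at 32430 to 124632 CPM in DZ and 29410 to 64908 CPM in aFM. The largest, miR-5119, stood at 75076, 25436 and 17669 CPM in DZ and 40915, 25661 and 15319 CPM in aFM, so DZ replicate A was the highest of the 6. Without that library its log2 fold change went from -0.53 to 0.37 and did not pass in either case.

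Both tested members of the miR-378 family, which acts on mitochondrial metabolism and muscle, were higher in aFM. miR-378a-3p stood at 743, 520 and 346 CPM in DZ and 1157, 1942 and 1228 CPM in aFM (log2 fold change 1.45 ± 0.46, adjusted p = 0.0471). miR-378c had 4 counts in DZ and 34 in aFM, 6.11 times as many per scaled count (95% counting interval 2.18 to 23.7; adjusted p = 0.0415). Leaving out any of 10 and 11 of the 12 libraries ended these calls (adjusted p at most 0.188 and 0.167). Without DZ replicate C the log2 fold change of miR-378c was 3.63 (adjusted p = 0.0513), against 2.58 with all libraries. No DZ library held 10 or more counts of miR-378c, so the filter on low counts favours a high value for it. The sum over the 5 family members was 500 to 867 CPM in DZ and 1457 to 2876 CPM in aFM.

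miR-222-3p and miR-221-3p, which share the seed GCUACAU and lie 594 bp apart on the minus strand of chromosome X, target the cell cycle inhibitor p27 and the receptor Kit. miR-222-3p was higher in aFM, at 2828, 4669 and 4513 CPM against 1425, 1156 and 2579 CPM in DZ (log2 fold change 1.20 ± 0.37, adjusted p = 0.0425). miR-221-3p stood at 2911, 1850 and 2618 CPM in DZ and 2142, 1681 and 1873 CPM in aFM (-0.37 ± 0.25, adjusted p = 0.43). The ratio of miR-222-3p to miR-221-3p within a library needs no scaling, and it was 0.489, 0.625 and 0.985 in DZ and 1.32, 2.78 and 2.41 in aFM. All 3 aFM ratios exceeded all 3 DZ ratios, with exact permutation p = 0.1 and adjusted p = 0.16 over the 8 such ratios computed, which were chosen after the levels were seen. The call of miR-222-3p was lost without any of 9 libraries (adjusted p up to 0.207).

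miR-151-3p, from an intron of the focal adhesion kinase gene, was higher by a small and even margin, at 6127, 6499 and 5925 CPM in aFM against 3841, 2717 and 3965 CPM in DZ. Its log2 fold change was 0.82 ± 0.23 (adjusted p = 0.0415), and the call was lost when any of 11 libraries was left out, all but PLL replicate A (adjusted p up to 0.174). The other arm, miR-151-5p, had 0 counts in DZ and 3, 0 and 2 in aFM.

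miR-146a-5p, which is induced by NF-κB and dampens its upstream adaptors Traf6 and Irak1, was lower in aFM. It stood at 1177, 2948 and 2502 CPM in DZ and 257, 374 and 982 CPM in aFM, so that aFM replicate C came closest to DZ. The log2 fold change of miR-146a-5p was -2.0 ± 0.50 (adjusted p = 0.0311), and -2.90 without aFM replicate C. It did not pass without DZ replicate B or C or aFM replicate A or B (adjusted p = 0.0995, 0.0513, 0.0953 and 0.0882). Its paralog miR-146b-5p, with the same seed GAGAACU and encoded on another chromosome, stood at 310, 1098 and 885 CPM in DZ and 728, 523 and 460 CPM in aFM and overlapped (-0.44 ± 0.52, adjusted p = 0.733). The within-library ratio of miR-146a-5p to miR-146b-5p was 3.80, 2.68 and 2.83 in DZ and 0.353, 0.714 and 2.13 in aFM (exact permutation p = 0.1, adjusted p = 0.16 over the same 8 ratios).

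miR-21a-5p, which is known to restrain Pdcd4 and was among the most abundant miRNAs of these libraries, was lower in aFM. Its levels were 88085, 119316 and 116218 CPM in DZ and 66836, 79635 and 69534 CPM in aFM (log2 fold change -0.58 ± 0.16, adjusted p = 0.0415). The highest aFM library lay just below the lowest DZ library, and the call was lost without any of 9 libraries (adjusted p up to 0.141). The locus, chr11:86584120-86584141, overlaps annotated exons of Vmp1. Over all 132 miRNAs tested, 9.09% were called higher and 9.85% lower. Of 7 miRNAs known as feedback targets of NF-κB, 4 were tested, with 1 higher (miR-9-5p), 2 lower (miR-146a-5p and miR-21a-5p) and a median of -0.51. miR-155-5p, the inflammatory miRNA of this list, had 0, 0 and 3 counts in DZ and 0, 6 and 9 in aFM and was too sparse to test.

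The erythroid miR-486a-5p, whose row is identical to that of miR-486b-5p, was lower in aFM. It stood at 104810, 86308 and 43769 CPM in DZ and 35260, 38585 and 37699 CPM in aFM. The aFM libraries were close together, and DZ replicate C was nearer to them than to the other DZ libraries. The log2 fold change was -1.07 ± 0.33 (adjusted p = 0.0415), lost without any of 9 libraries (adjusted p up to 0.181). The 3p arm, also a shared row, stood at 805, 752 and 231 CPM in DZ and 129, 74.7 and 214.9 CPM in aFM (-2.0 ± 0.64, adjusted p = 0.0471). That call, from 32 counts in DZ and 12 in aFM, was lost without any of 11 libraries (adjusted p up to 0.18). It was also lost with identical rows merged. miR-451a, which matures through Ago2 and is the other main miRNA of red cells, overlapped between the groups, at 34503, 34858 and 18555 CPM in DZ and 16238, 44150 and 10898 CPM in aFM (-0.30 ± 0.48, adjusted p = 0.826). The remaining erythroid markers were too sparse to test and had more counts in aFM. miR-144-3p had 0, 1 and 0 counts in DZ and 1, 6 and 3 in aFM. miR-144-5p had 0, 0 and 0 in DZ and 1, 2 and 3 in aFM. With identical rows taken once, the erythroid markers summed to 62324 to 139313 CPM in DZ and 48782 to 83034 CPM in aFM, and overlapped. The part of red cell RNA in these values was not tested.

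miR-142a-5p, a miRNA of blood cells, stood at 3593, 3237 and 3041 CPM in DZ and 1757, 1980 and 1504 CPM in aFM. The DZ libraries were all above the aFM libraries, with a log2 fold change of -0.91 ± 0.28 (adjusted p = 0.0415, up to 0.156 with a library left out). The other leukocyte markers were sparse in both groups. miR-223-3p had 2, 2 and 2 counts in DZ and 2, 2 and 0 in aFM, miR-150-5p 1, 1 and 2 against 0, 9 and 3, and miR-142a-3p 0, 0 and 0 against 4, 2 and 0. The summed level of the 6 leukocyte markers was 3195 to 3779 CPM in DZ and 1596 to 2540 CPM in aFM, of which miR-142a-5p made up most.

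Of the 13 mesenchymal markers, 12 had counts in both groups, and miR-31-5p had 6 counts in DZ replicate C and 0 in the other 5 libraries. Of 11 tested, 0 were higher and 1 was lower, with a median of -0.14. miR-143-3p, the stromal and smooth muscle miRNA, stood at 88456, 81914 and 76029 CPM in DZ and 82645, 68018 and 72973 CPM in aFM (log2 fold change -0.14 ± 0.17, adjusted p = 0.741). Its cluster partner miR-145a-5p was the member that was lower, with 2, 15 and 11 counts in DZ and 2, 0 and 0 in aFM. The ratio of DZ to aFM per scaled count was 19.5 (95% counting interval 4.91 to 169; adjusted p = 0.0415). Its fitted log2 fold change of -4.03 was -6.93 without aFM replicate A and -3.31 without DZ replicate B, and the call was lost without any of 10 libraries (adjusted p up to 0.141). The 3p arm, miR-145a-3p, stood at 1734, 1792 and 1309 CPM in DZ and 1114, 710 and 829 CPM in aFM, without overlap (-0.86 ± 0.35, adjusted p = 0.115).

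**Figure D3:**
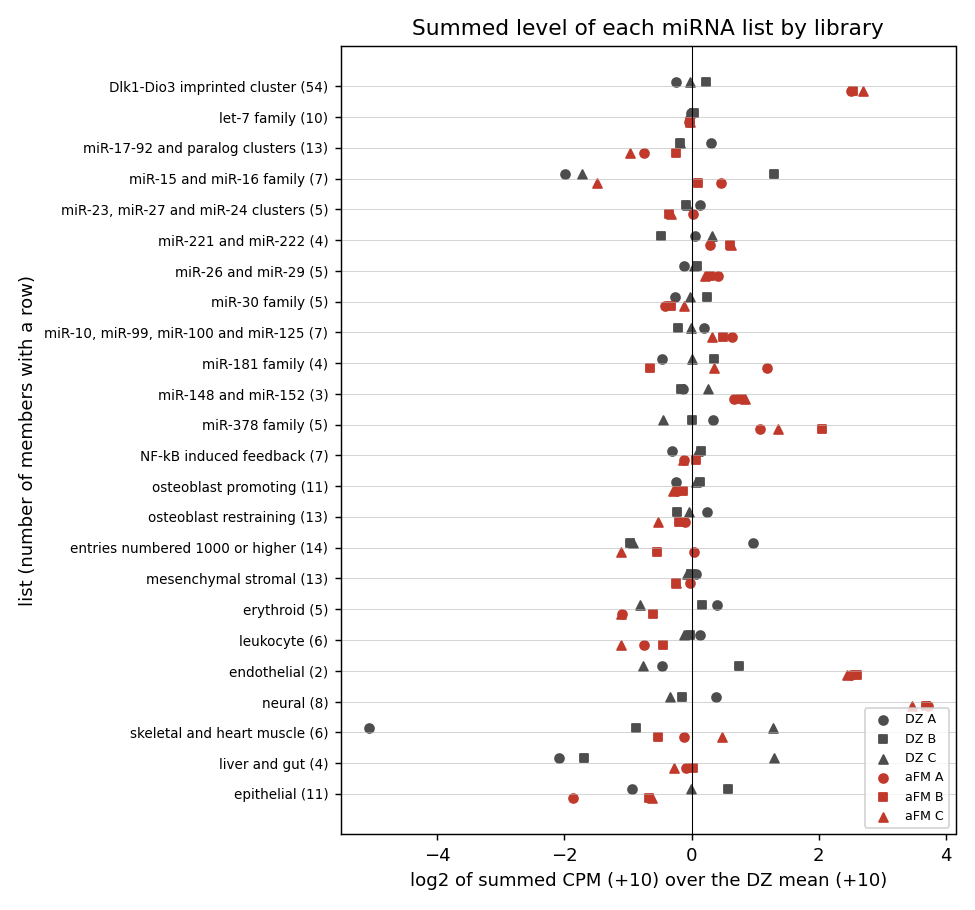
Summed level of each miRNA list in every DZ (grey) and aFM (red) library, as log2 of the sum plus 10 CPM over the DZ mean plus 10 CPM, so 0 is the DZ mean. Before that scaling the Dlk1-Dio3 sums are 1115 to 1561 CPM in DZ and 7626 to 8688 CPM in aFM, and the let-7 sums are 226469 to 235222 CPM and 223129 to 226624 CPM.

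The other lower miRNAs belong to no common list. miR-16-2-3p, from the hairpin next to miR-15b in an intron of Smc4, stood at 3345, 2890 and 1193 CPM in DZ and 685, 710 and 706 CPM in aFM (log2 fold change -1.80 ± 0.42, adjusted p = 0.0252). The call was lost on removing DZ replicate A, DZ replicate B or an aFM replicate (adjusted p at most 0.0963). The 5p product miR-16-5p, usually the major arm, had 0, 8 and 2 counts in DZ and 4, 6 and 3 in aFM, and of the 7 members of the miR-15 and miR-16 family 0 could be tested.

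miR-210-3p, the miRNA induced by hypoxia through HIF1A, stood at 557, 347 and 308 CPM in DZ and 0, 112 and 61.4 CPM in aFM. These are 23 counts in DZ and 5 in aFM, 6.40 times as many per scaled count in DZ (95% counting interval 2.38 to 21.6; adjusted p = 0.0415). The call was lost whichever of the 12 libraries was left out (adjusted p 0.052 to 0.127), and the fitted log2 fold change of -2.65 was -3.43 without aFM replicate B.

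miR-185-5p, miR-484 and miR-191-5p completed the lower calls. miR-185-5p stood at 2044, 2255 and 1347 CPM in DZ and 814, 784 and 675 CPM in aFM (log2 fold change -1.30 ± 0.34, adjusted p = 0.039). miR-484, whose precursor is made without Drosha, stood at 1549, 1387 and 847 CPM in DZ and 214, 485.6 and 307 CPM in aFM (-1.88 ± 0.55, adjusted p = 0.0415). miR-191-5p, a broadly expressed miRNA, stood at 10035, 12602 and 9239 CPM in DZ and 6469, 6686 and 5158 CPM in aFM (-0.80 ± 0.24, adjusted p = 0.0415). None of the 3 overlapped between the groups. They were lost without any of 6, 9 and 11 libraries, with adjusted p up to 0.116, 0.136 and 0.141.

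Several abundant families showed no call. Over all miRNAs tested 25 of 132 were called (18.9%), so 0 calls among a few members says little about a family. The let-7 family, which restrains growth genes, summed to 228760, 235222 and 226469 CPM in DZ and 223129, 225234 and 226624 CPM in aFM, with 0 of 9 tested members called and a median of 0.05. let-7b-5p averaged 41010 ± 3979 CPM in DZ and 41089 ± 3366 CPM in aFM (SD, n = 3). let-7c-5p was the member with the smallest p, at 66900, 62549 and 62748 CPM in DZ and 49227, 51733 and 51544 CPM in aFM, without overlap (log2 fold change -0.33 ± 0.14, adjusted p = 0.115). There were 0 calls among 2 tested members of the growth-promoting miR-17-92 clusters (median -0.43), 5 of the miR-23, miR-27 and miR-24 clusters (-0.16) and 3 of miR-26 and miR-29 (0.34). The summed levels of the miR-17-92 clusters did not overlap, at 17207 to 24344 CPM in DZ and 10069 to 16584 CPM in aFM. Most of that sum was miR-92a-3p, which itself overlapped, at 12082 CPM in DZ replicate B and 12214 CPM in aFM replicate B. The sums of miR-26 and miR-29 did not overlap either, at 40078 to 46015 CPM in DZ and 50347 to 57924 CPM in aFM. miR-26a-5p made up most of these, whereas miR-29a-3p went the other way, with means of 2343 CPM in DZ and 1472 CPM in aFM. Of all single miRNAs tested 34.1% did not overlap, so neither sum carries a result about its family. There were also 0 calls among 4 tested members of the miR-30 family (-0.27) and 1 of the miR-181 family (0.33).

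miR-148a-3p and miR-99a-5p were higher in every aFM library without passing. miR-148a-3p, which is known to act on DNA methyltransferase transcripts, stood at 46025, 45726 and 62902 CPM in DZ and 83930, 91588 and 95476 CPM in aFM (log2 fold change 0.81 ± 0.44, adjusted p = 0.27). The log2 fold change of miR-148a-3p passed when only the aFM and DZ libraries were fitted (adjusted p = 0.0154) and without PLL replicate A (adjusted p = 0.00248). miR-99a-5p, which restrains Mtor and was singled out here after its values were seen, stood at 16105, 13701 and 12934 CPM in DZ and 33504, 30778 and 25204 CPM in aFM (1.07 ± 0.55, adjusted p = 0.242), and it passed in the same 2 settings and with no filter on low counts. Within a library, miR-99a-5p was 1.69, 2.30 and 1.59 times miR-99b-5p in DZ and 4.39, 5.06 and 3.75 times in aFM. The ratio of miR-148a-3p to miR-148b-3p was 43.7, 39.6 and 77.8 in DZ and 103, 90.8 and 164 in aFM (exact permutation p = 0.1 for each ratio, adjusted p = 0.16 over the 8 ratios). Of the 7 tested members of the miR-10, miR-99, miR-100 and miR-125 family 0 were called (median 0.12), as were 0 of 3 of miR-148 and miR-152 (-0.02).

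Markers of other tissues were read in the same libraries. Of the epithelial markers 3 of 11 were tested, 0 were called, and the sums overlapped at 1549 to 4451 CPM in DZ and 814 to 1934 CPM in aFM. The liver miRNA miR-122-5p stood at 1920, 4393 and 38726 CPM in DZ and 15124, 15949 and 13723 CPM in aFM, so DZ replicate C was above and the other DZ libraries below all of aFM. Its log2 fold change, -0.02 with all libraries, was 2.26 without DZ replicate C and then passed (adjusted p = 0.00881). miR-192-5p, of liver and gut, was likewise highest in DZ replicate C, with 210 counts against 26 to 77 in the other 5 libraries. Without that library its log2 fold change went from -0.63 to 0.49. Muscle markers summed to 0 to 808 CPM in DZ and 224 to 460 CPM in aFM. The part of these RNAs in the spread of the DZ libraries was not tested.

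The threshold separated close values. Just inside it were miR-378a-3p and miR-486a-3p at an adjusted p of 0.0471, and just outside were miR-379-5p at 0.0539 and miR-342-5p, miR-10a-5p and miR-30a-5p at 0.0556. miR-10a-5p, from the Hox gene region, stood at 3283, 1965 and 1809 CPM in DZ and 4327, 4221 and 4267 CPM in aFM (log2 fold change 0.87 ± 0.29).

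**Figure D4:**
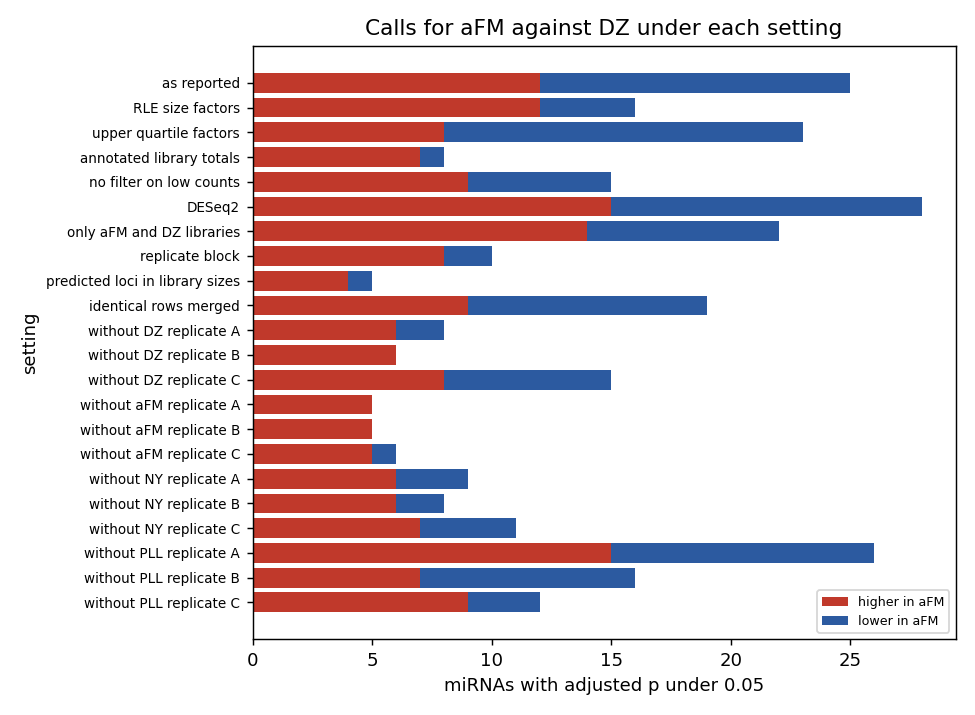
Number of miRNAs called higher (red) and lower (blue) in aFM under each setting of the analysis, including each library left out in turn. The reported setting gives 12 and 13, and leaving out 1 library gives totals of 5 to 26.

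Below the depth needed for a test, 14 annotated miRNAs had a count in all 3 aFM libraries and 0 in all DZ libraries, and 0 showed the opposite. The aFM libraries together held 79062 annotated counts and the DZ libraries 60661. The largest was miR-450a-5p with 12, 2 and 4 counts in aFM, per scaled count 4.31 times a floor of 3 counts over the DZ group. miR-124-3p stood at 2.87 times that floor, and miR-455-3p and the Dlk1-Dio3 member miR-494-3p, with 10 counts each, at 2.40 times. These values leave out the counting error of the aFM counts, so they are not lower bounds, and the rows were picked for 0 counts in DZ. These few counts carry no test.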

How the data were processed

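Small RNA of extracellular vesicles was measured in 12 libraries of 4 groups (DZ, aFM, NY and PLL, 3 each). The authors deposited 1 table of whole-number counts per library, unnormalized, with mouse miRNA names and predicted loci. The submitters' processing notes name FastQC, STAR, StringTie, DESeq2 and mm39, without roles. How reads shared by identical miRNAs were assigned is not given in the sources used here. Labels describe an mRNA library protocol, the design text a small RNA kit. Sequences and coordinates are from RefSeq on GRCm38.p6, host genes from GENCODE M21, so no coordinate is one of the deposited table's own.

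Predicted loci were left out. Counts of annotated miRNAs that passed edgeR's filterByExpr (minimum count 10, minimum total 15) were scaled by TMM and fitted in edgeR 4.0.16 with a term per group over all 12 libraries. The contrast was aFM minus DZ, two-sided, with Benjamini-Hochberg adjustment over 132 miRNAs and a threshold of 0.05. The tested miRNAs held 98.0% to 98.7% of annotated counts in the 6 libraries, and the common biological coefficient of variation was 40.4%. The fit was also run on simulated counts that gave every miRNA and every group the same spread. In the data DZ varied more than aFM, so that run does not vouch for the calls given here. Standard errors are the log2 fold change over the square root of F. Ratios of few counts have exact 95% counting intervals. Shares and ratios within a library were compared by exact permutation tests in scipy 1.17.1.

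Named were all calls and their other arms, the 5 next by p, the 10 most abundant, the member of smallest p in each list, and list members that describe a list. Members and lists were chosen with earlier results of these data known. Alternatives were other scalings, no filter, DESeq2 1.42.0, 6 libraries, a replicate block, merged identical rows and each library left out.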

Additional observations from a re-analysis of the deposited data

How the results depend on the processing

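Of the 25 calls, 5 passed with any of the 12 libraries left out (miR-3960, miR-9-5p, miR-409-3p, miR-126a-3p and miR-411-5p), and 4 of these also under the 9 other settings, all but miR-126a-3p. The other 20 were lost without 4 to 12 of the libraries. The count of calls was 16 with RLE size factors, 8 with annotated library totals, 15 with no filter on low counts and 5 once library sizes included predicted loci, and ran from 5 to 26 with a library left out. The cause was not tested. With a replicate block on the library letters there were 10 calls, all among the 25. The letters were not taken as pairs, since no label says that they pair cultures. Deviations of same-lettered aFM and DZ libraries correlated at 0.216, 0.0488 and 0.170 for A, B and C. Those of unlike letters correlated at -0.195 to 0.0542, the highest for aFM replicate B with DZ replicate C. These values do not settle whether the letters are pairs. The difference in annotated share of counts, aFM against DZ, ran from -5.69 to 0.233 percentage points with a library left out, positive without aFM replicate A.

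Over the named miRNAs and alternatives, 632 values kept direction and side of the threshold, 265 lost a call, 15 gained one and 24 changed sign, none of these a called miRNA. The log2 fold change of let-7i-5p was -0.12 with upper quartile factors, -0.39 once library sizes included predicted loci, and -0.0024, -0.057 and -0.013 without aFM replicates A and C and PLL replicate B. The log2 fold change of let-7b-5p was -0.17, -0.36 and -0.031 with upper quartile factors, predicted loci and merged rows. It ran from -0.16 to 0.11 with a library left out, and was negative without any of 6 libraries. With predicted loci the log2 fold change of miR-26a-5p was -0.16 and the log2 fold change of miR-181a-5p -0.27, the latter running from -0.14 without aFM replicate A to 0.58. The log2 fold change of miR-206-3p was 0.0088 with annotated totals, 0.0070 with DESeq2, 0.15 with the replicate block and 0.14 without aFM replicate A, and ran from -0.87 to 2.97, the latter without DZ replicate C. The log2 fold change of miR-5119 ran from -0.96 to 0.37 (without DZ replicate A), and the log2 fold change of miR-192-5p from -0.99 to 0.49 (without DZ replicate C). The log2 ratio of summed muscle markers was -0.37 on all rows of the table. At these depths a miRNA below about 92.1 to 186 CPM could not be told from absence in a single library.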
